A study of Mus musculus with 24 samples.

Results

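Antiviral effector genes, 9 in number, were followed in every library of the experiment. They were chosen by symbol from the 55487 genes of the count table. They are the interferon-induced tetratricopeptide repeat (IFIT) genes *Ifit1*, *Ifit2*, *Ifit3* and *Ifit3b*, the Mx dynamin-like GTPase genes *Mx1* and *Mx2*, *Rsad2*, *Bst2* and *Ifitm3*. All 24 libraries came from 1 established cell line, AML-12, mouse hepatocytes derived from animals transgenic for transforming growth factor alpha. The BSA group had the albumin carrier alone and the PAL group 0.25 mM palmitate, a saturated fatty acid, and neither group had an esiRNA. CON, BMAL1, CHREBP and BOTH cells received the same palmitate and, for the last 24 hours, an esiRNA, which is a pool of short interfering RNAs cut by an endoribonuclease from a long double-stranded RNA. CON received 200 nM against *Egfp*, a jellyfish reporter gene that is not part of the mouse genome. BMAL1 had 100 nM directed at *Bmal1* (*Arntl*, a core clock transcription factor) and CHREBP 100 nM against *Chrebp* (*Mlxipl*, a glucose-responsive transcription factor). BOTH received the pair together at 200 nM in total. Each group held 4 libraries. Nothing in the labels says whether these came from separate cultures, so p-values measure the spread between these libraries, which may be technical.

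In vertebrate cells, double-stranded RNA is sensed by the RIG-I-like receptors, Toll-like receptor 3, protein kinase R and others. Interferons made in response bind their receptors, and transcription factors activated there bind interferon-stimulated response elements (ISRE) in front of target genes. The 9 genes are classical targets of this route, and their products are known for blocking steps of viral infection, with the limit that mouse *Mx2* is annotated as a polymorphic pseudogene. IFIT proteins bind viral RNA or translation factors, and IFIT1 recognizes mRNA whose cap lacks 2′-O methylation. The Mx proteins assemble on viral ribonucleoproteins. RSAD2 (viperin) makes a chain-terminating nucleotide, BST2 (tetherin) holds budding virions at the cell surface, and IFITM3 sits in endosomal membranes and hinders virus fusion. Hepatocytes respond to interferons and are themselves a target of viruses.

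The promoters are shown because the ISRE is the textbook entry point of the pathway, and its use in these cells was not tested. Of the 9 members, 7 were matched in the RefSeq promoter table (GRCm38.p6). *Mx1* and *Mx2* had no entry. The bases just after the RefSeq start were found in a GENCODE transcript except for *Ifit3b*, *Bst2* and the second start of *Ifit2*. The window of *Ifit1* runs past the GENCODE start of the gene. Distances below hold for the RefSeq starts. In the 250 bases before each start, the ISRE core GAAANNGAA was searched on both strands. It was present in 7.13% of 32851 promoters of that length and at least 2 times in 0.469%. Capitals mark the core letters in the sequences, written 5′ to 3′ on the strand of the gene, where TTCNNTTTC is the core read from the opposite strand.
Ifit1 (chr19:34640639-34640888, plus strand): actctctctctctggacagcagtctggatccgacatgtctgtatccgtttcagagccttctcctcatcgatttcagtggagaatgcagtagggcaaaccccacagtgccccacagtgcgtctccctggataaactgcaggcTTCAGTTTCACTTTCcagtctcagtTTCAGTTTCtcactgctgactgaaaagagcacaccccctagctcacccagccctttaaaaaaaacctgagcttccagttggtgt
Ifit3 (chr19:34583279-34583528, plus strand): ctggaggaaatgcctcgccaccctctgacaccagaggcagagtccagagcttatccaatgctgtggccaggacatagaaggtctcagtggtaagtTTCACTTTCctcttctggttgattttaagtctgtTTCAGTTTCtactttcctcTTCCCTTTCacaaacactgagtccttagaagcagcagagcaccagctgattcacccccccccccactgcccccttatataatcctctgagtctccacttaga
Ifit3b (chr19:34607707-34607956, plus strand): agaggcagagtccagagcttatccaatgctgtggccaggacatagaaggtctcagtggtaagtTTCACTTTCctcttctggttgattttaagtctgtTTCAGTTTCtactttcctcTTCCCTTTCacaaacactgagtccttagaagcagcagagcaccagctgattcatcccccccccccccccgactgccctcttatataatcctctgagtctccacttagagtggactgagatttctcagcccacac
Rsad2 (chr12:26456453-26456702, minus strand): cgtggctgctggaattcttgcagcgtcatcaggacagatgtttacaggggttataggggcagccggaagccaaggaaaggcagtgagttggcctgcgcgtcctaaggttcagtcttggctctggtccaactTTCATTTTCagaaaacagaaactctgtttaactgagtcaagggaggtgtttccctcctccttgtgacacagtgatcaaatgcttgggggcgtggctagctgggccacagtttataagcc
Bst2 (chr8:71537473-71537722, minus strand): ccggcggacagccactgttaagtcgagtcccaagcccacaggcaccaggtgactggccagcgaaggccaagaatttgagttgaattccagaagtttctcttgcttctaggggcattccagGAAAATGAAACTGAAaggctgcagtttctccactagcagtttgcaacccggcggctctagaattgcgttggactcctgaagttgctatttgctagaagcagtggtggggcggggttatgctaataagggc
Ifitm3 (chr7:141010745-141010994, minus strand): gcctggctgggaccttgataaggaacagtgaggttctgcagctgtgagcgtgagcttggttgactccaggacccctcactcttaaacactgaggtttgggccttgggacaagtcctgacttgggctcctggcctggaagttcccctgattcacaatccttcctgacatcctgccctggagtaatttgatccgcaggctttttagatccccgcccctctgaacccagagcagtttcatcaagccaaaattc
*Ifit1*, *Ifit3* and *Ifit3b* each held 3 matches, *Bst2* held 2 that overlap, and *Rsad2* held 1. The first 2 matches of *Ifit1* also overlap. In *Ifit3* and *Ifit3b* the 3 matches had the same letters and spacing, and the promoters were identical at 216 of 218 aligned bases (99.1%). No match lay in the windows of *Ifitm3* or in either of the 2 windows of *Ifit2*, which says only that these letters are not in them. The gamma-activated site TTCNNNGAA was found in 7.02% of the promoters. It occurred once in *Bst2*, where it overlaps the ISRE core, and once at the first start of *Ifit2*.

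**Figure D1:**
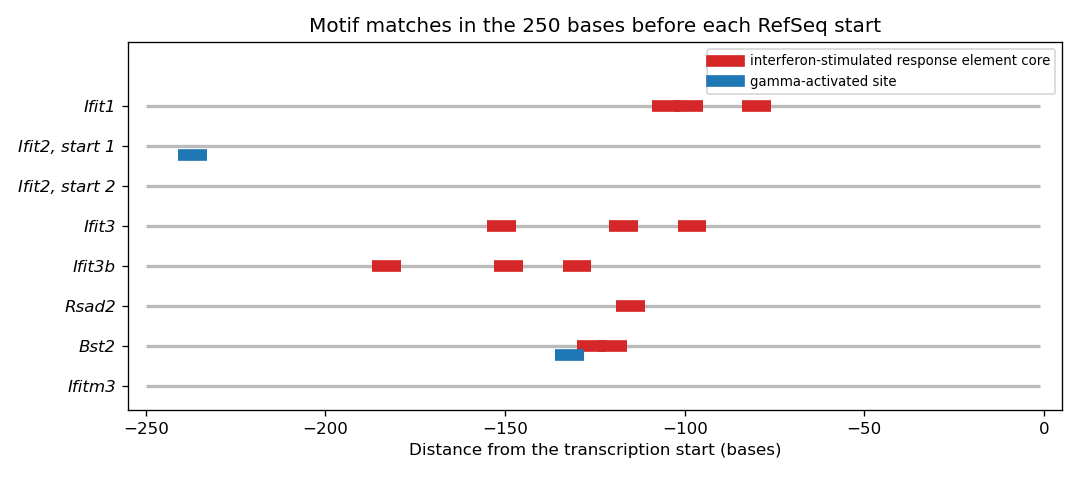
Matches to the ISRE core (red) and the gamma-activated site (blue) in the 250 bases before each RefSeq start of the 7 matched members, plotted as distance from the start in bases on the strand of the gene. *Ifit1*, *Ifit3* and *Ifit3b* hold 3 ISRE core matches each, *Bst2* 2 and *Rsad2* 1, between 76 and 187 bases before the start, and *Ifit2* and *Ifitm3* hold none.

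The 4 IFIT genes lie on the plus strand of chromosome 19 within 99316 bases, in the order *Ifit2*, *Ifit3*, *Ifit3b*, *Ifit1* (GENCODE, GRCm38). *Ifit1* spans chr19:34640871-34650009. *Mx1* (chr16:97447035-97462907, minus strand) and *Mx2* (chr16:97535308-97560900, plus strand) are 72400 bases apart. *Rsad2* (chr12:26442746-26456452), *Bst2* (chr8:71534255-71537456) and *Ifitm3* (chr7:141009586-141010770) are on the minus strand. None of the 9 overlaps another annotated gene on either strand.

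The libraries held 5399700 to 11237474 counts assigned to genes, with a median of 7872956. Values below are counts divided by DESeq2 size factors estimated over the 24 libraries (normalized counts), and 3 counts, the limit that a count of 0 allows, correspond to 2.02 to 4.24 normalized counts. BRB-seq counts mark 3′ ends and are not scaled by length, so levels are compared within a gene. The libraries were laid out so that BSA and PAL occupied column 1, CON and BMAL1 column 2, and CHREBP and BOTH column 3. Column therefore cannot be told apart from *Chrebp* esiRNA, nor from transfection in CON against PAL. Row position cannot be told apart from palmitate in PAL against BSA or from *Bmal1* esiRNA. In CON against PAL, BOTH against CON and CHREBP against BMAL1, both row position and column differed. *Arntl* was 26.0 ± 4.82 in BMAL1 and 44.7 ± 11.6 in CON (SD, n = 4), and *Mlxipl* was 25.9 ± 4.75 in CHREBP and 35.6 ± 7.26 in CON. *Arntl* had a log2 fold change of -0.78 (SE 0.28) and no Padj, since DESeq2 set it aside for its low mean count, and *Mlxipl* had -0.46 (SE 0.28, Padj = 0.593). In BOTH against CON both were lower, *Arntl* by a log2 fold change of -0.98 (Padj = 0.00994) and *Mlxipl* by -1.07 (Padj = 0.00762). The 12 hepatocyte markers had counts in every group, with summed levels of 6744 to 8235 CPM (counts scaled to the library total). The sum was carried by *Krt18*, *Krt8*, *Trf* and *Apoe*. The epithelial keratins *Krt18* and *Krt8* were at means of 31160 and 12863 normalized counts over the 24 libraries. On that scale *Ttr* and *Hnf4a* were at 1406 and 1280, and *Alb* was at 159. *Apob* and *Fgb* were at 23.7 and 22.5, and *Apoa1*, *Apoa2* and *Ahsg* at 7.6, 3.23 and 2.28. Of 8 macrophage and leukocyte markers 6 had a count, with sums of 71.1 to 124.5 CPM that were nearly all *Cd14* (mean 660 normalized counts, against at most 12 for the others). The defining macrophage markers *Adgre1* and *Clec4f* were at 0 in the 24 libraries. The markers of plasmacytoid dendritic cells, the specialized interferon producers, did not exceed 0.441 CPM. Endothelial markers did not exceed 0.623 CPM and stellate cell markers 3.68 CPM, whereas cholangiocyte markers, with *Krt7*, *Krt19* and *Sox9* among them, summed to 492 to 734 CPM and were lowest in a BOTH library. In bulk RNA, fewer responding cells and less RNA per cell cannot be told apart.

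Together the 9 transcripts made up 0.00123% of gene counts in the lowest PAL library and 0.743% in the highest BOTH library. In 8 of the 9 genes the group means ran, from high to low, BOTH, CHREBP, CON, BMAL1, BSA, PAL, and in *Bst2* BSA stood above BMAL1. The comparisons that follow test these neighbours except BMAL1 and BSA, which were not compared.

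**Figure D2:**
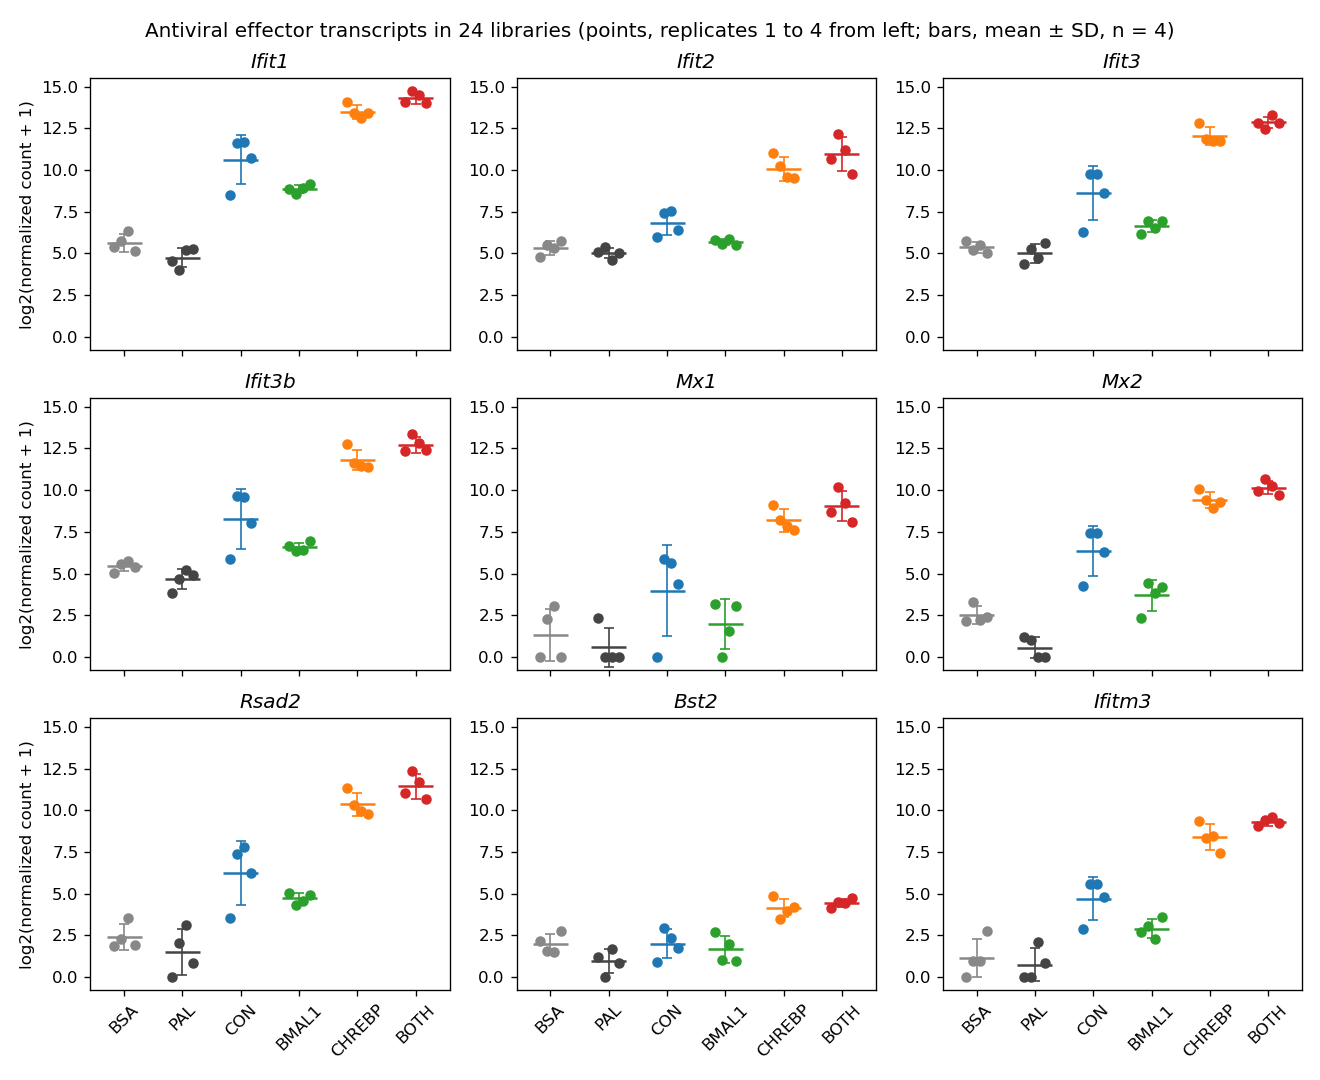
Level of each of the 9 transcripts as log2(normalized count + 1) in the 24 libraries, with 1 panel a gene; points are libraries (replicates 1 to 4 from left to right within a group), horizontal lines group means and error bars SD on that log scale. CHREBP and BOTH libraries lie above the CON libraries in each panel, and the first CON library is the lowest of its group in each panel, at 359 normalized counts of *Ifit1* against 1705 to 3237 in the other 3.

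*Ifit1*, whose product recognizes incompletely capped RNA, had 40.3, 52.2, 81.2 and 34.0 normalized counts in BSA replicates 1 to 4 and 22.4, 15.1, 35.8 and 37.3 in PAL. It had 359, 3147, 3237 and 1705 in CON, and 459, 375, 487 and 571 in BMAL1. It reached 17571, 11008, 8818 and 10843 in CHREBP and 17633, 27843, 22854 and 16367 in BOTH. CHREBP and BOTH did not overlap CON, the first CON library lay below the BMAL1 libraries, and BOTH replicate 4 fell within the range of CHREBP.

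*Ifit2*, a partner of the other IFIT proteins in RNA-binding complexes, had 26.5, 44.5, 38.8 and 53.8 normalized counts in BSA and 33.0, 40.2, 23.5 and 31.9 in PAL. Values in CON were 62.8, 172, 184 and 84.6, and values in BMAL1 were 54.3, 46.7, 56.5 and 44.8, so that these groups did not overlap. In CHREBP it had 2119, 1197, 760 and 733, and in BOTH 1652, 4624, 2360 and 868. The spread of *Ifit2* within BOTH was 5.33-fold from the lowest to the highest library, against 1.70-fold for *Ifit1*.

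*Ifit3* had 53.1, 36.7, 44.2 and 31.1 normalized counts in BSA and 19.8, 38.2, 25.7 and 48.2 in PAL. It had 78.1, 861, 878 and 400 in CON and 70.6, 122, 90.0 and 123 in BMAL1. CHREBP held 7263, 3758, 3438 and 3382, and BOTH held 7261, 5726, 10018 and 7371. The first CHREBP library stood at the level of the BOTH libraries. *Ifit3b*, its near-identical neighbour, had 31.7, 47.4, 53.2 and 41.0 in BSA and 13.2, 24.1, 35.8 and 29.5 in PAL. Its values were 56.6, 795, 781 and 264 in CON and 101, 81.8, 84.3 and 122 in BMAL1, then 6843, 3152, 2839 and 2726 in CHREBP and 5131, 10433, 7253 and 5374 in BOTH. BOTH replicate 2 was the lowest of its group for *Ifit3* and the highest for *Ifit3b*.

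The *Ifit3* and *Ifit3b* transcripts were identical at 1663 of 1697 aligned bases (98.0%), and over the last 500 bases of *Ifit3*, the region that 3′ counting reads, at 473 of 497 (95.2%). Of the 441 stretches of 60 bases in that end, 57 (12.9%) occurred unchanged in *Ifit3b*. How the division of reads between the pair was handled is not given in the sources used here, and each gene's own level is uncertain to that extent. *Ifit3* took 51.5% to 55.4% of the summed counts of the pair in CHREBP. In BOTH it took 58.6%, 58.0% and 57.8% in replicates 1, 3 and 4 but 35.4% (exact 95% interval 34.7 to 36.1, counting error only) in replicate 2. The other 23 libraries ranged from 41.3% to 62.6% with a median of 54.8%. The summed normalized count of the pair was 12392, 16159, 17271 and 12744 in BOTH, so that replicate 2 was inside the range of its group for the sum.

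**Figure D3:**
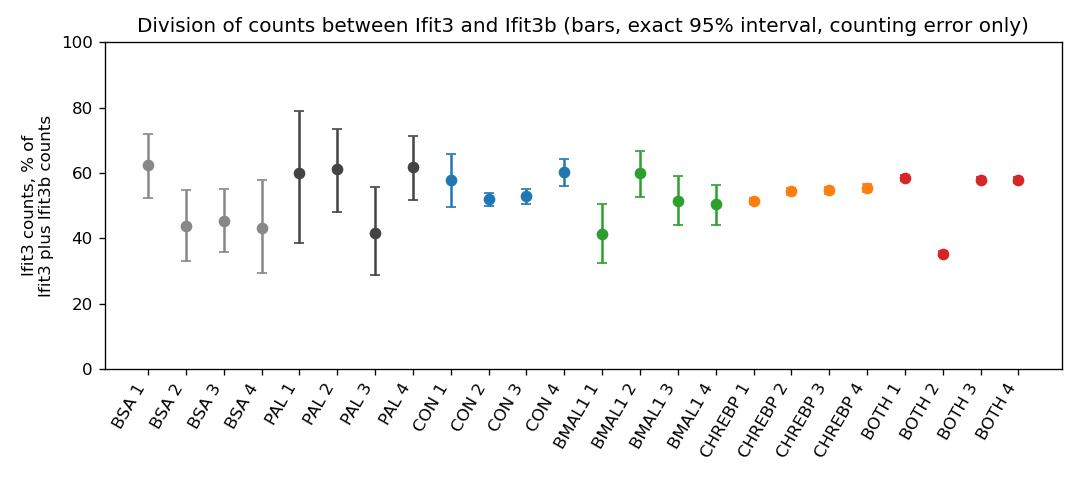
Counts of *Ifit3* as a percent of the counts of *Ifit3* and *Ifit3b* together in each of the 24 libraries; bars are exact 95% binomial intervals and cover counting error only. BOTH replicate 2 lies at 35.4%, below the other BOTH libraries at 57.8% to 58.6%, and the intervals are widest in BSA and PAL, where counts were low.

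*Mx1*, a nuclear restriction factor of influenza viruses in mice, had no count in 2 of 4 BSA libraries and 3 of 4 PAL libraries, and its highest value in these groups was 7.21. It had 0, 56.6, 48.5 and 19.7 normalized counts in CON and 8.15, 0, 1.92 and 7.31 in BMAL1. Values were 563, 290, 227 and 192 in CHREBP and 416, 1184, 589 and 274 in BOTH. CHREBP and BOTH were each above the CON libraries, and they overlapped each other. *Mx2*, whose mouse product is cytoplasmic, had 3.43, 8.70, 3.61 and 4.24 in BSA and 1.32, 1.01, 0 and 0 in PAL. It had 18, 169, 169 and 76.5 in CON and 4.07, 20.2, 13.4 and 17.4 in BMAL1, with the first CON library below the second BMAL1 library. It had 1055, 677, 482 and 635 in CHREBP and 978, 1641, 1239 and 850 in BOTH.

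*Rsad2* had 2.57, 3.87, 10.8 and 2.83 normalized counts in BSA and 0, 3.02, 7.83 and 0.777 in PAL. It had 10.8, 167, 220 and 73.0 in CON and 31.2, 19.1, 23 and 29.2 in BMAL1. It had 2586, 1288, 998 and 867 in CHREBP and 2100, 5268, 3249 and 1633 in BOTH. The 20.5-fold spread within CON was larger than the 1.63-fold spread within BMAL1. The first CON library lay below the BMAL1 libraries and the other 3 above them.

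*Ifitm3* had 0, 0.967, 0.902 and 5.66 normalized counts in BSA and 0, 0, 3.35 and 0.777 in PAL, at or near the limit of 3 counts. It had 6.28, 47.2, 46.1 and 26.7 in CON and 5.43, 7.44, 3.83 and 11 in BMAL1. It had 658, 318, 348 and 174 in CHREBP and 531, 680, 781 and 591 in BOTH. *Bst2* stayed low in the 6 groups. It had 3.43, 1.93, 1.80 and 5.66 in BSA, 1.32, 0, 2.24 and 0.777 in PAL, 0.898, 6.74, 4.11 and 2.32 in CON and 5.43, 1.06, 2.87 and 0.914 in BMAL1. It had 27.7, 10.3, 14.5 and 17.7 in CHREBP and 16.6, 21.2, 20.8 and 25.9 in BOTH. The CHREBP and BOTH libraries of *Bst2* were above the other 16.

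The place of a library within its group recurred across genes in some groups. The first CON library was lowest and the fourth second lowest in 9 of 9 members, and the first CHREBP library was the highest of its group in 9 of 9. In BOTH, replicate 2 was highest in 6 of 9. In BSA, PAL and BMAL1 no library was highest in more than 4 or lowest in more than 6 members. Over the 24 libraries the 36 pairs of members had Pearson correlations of log2(normalized count + 1) from 0.842 to 0.991, with a median of 0.959, which is a description across libraries that share the group differences.

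Whether palmitate by itself moved the antiviral genes was asked by comparing PAL with BSA. *Ifit1* was lower in PAL, at 27.7 ± 10.7 against 51.9 ± 20.9 (SD, n = 4). The log2 fold change was -0.90 (SE 0.32, Padj = 0.048). It was the 1 member called of the 5 that reached 25 summed counts in these 8 libraries, beside 7.6% of 12827 tested genes called lower, and its groups overlapped. *Ifit3b* had a log2 fold change of -0.73 (SE 0.31, Padj = 0.112). *Ifit2*, *Ifit3* and *Rsad2* had -0.32 (SE 0.29), -0.30 (SE 0.30) and -0.82 (SE 0.92). The value of *Rsad2* was -1.96 without PAL replicate 3. The call of *Ifit1* was lost when any of 4 libraries was left out (BSA replicate 2 or 3, PAL replicate 1 or 2), and without BSA replicate 1 or PAL replicate 3 the count of members called was 2. The call was also lost with a replicate block (Padj = 0.118) and in a fit of all 24 libraries (Padj = 0.262), where *Mx2*, tested there, was the 1 member called (log2 fold change -3.27, Padj = 0.0454). *Mx2* had 20 counts in BSA and 2 in PAL, a ratio of 0.102 (95% counting interval 0.0116 to 0.421), below the limit for testing.

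The effect of transfection with a control esiRNA was asked by comparing CON with PAL. Of the 9 members, 7 were higher in CON, beside 1.59% of 12928 tested genes. The groups did not overlap in these 7, beside 4.18% of tested genes, and overlapped in *Mx1* and *Bst2*. *Mx2*, *Rsad2* and *Ifitm3* reached the limit for testing through their CON counts. The log2 fold change was 7.72 (SE 1.06, Padj = 4.46e-10) for *Mx2*, 6.25 (SE 0.69, Padj = 7.43e-16) for *Ifit1* and 5.34 (SE 1.17) for *Rsad2*. It was 4.94 (SE 1.10) for *Ifitm3*, 4.20 (SE 0.79) for *Ifit3b* and 4.06 (SE 0.73) for *Ifit3*. The PAL levels of *Ifitm3* and *Rsad2* rested on 4 and 11 counts, and without PAL replicate 3 their log2 fold changes were 6.45 and 6.50. *Ifit2* had the lowest value of the 7 at 1.97 (SE 0.42, Padj = 0.00048). The PAL level of *Mx2* rested on 2 counts, and its ratio of summed counts scaled by depth was 228 (95% counting interval 62.9 to 1891). *Mx1* had 160 counts in CON and 3 in PAL, a ratio of 44.9 (counting interval 15.1 to 220), with no count in the first CON library. DESeq2 did not call it (log2 fold change 5.06, SE 2.24, Padj = 0.346), whereas edgeR (Padj = 0.00488) and a fit of all 24 libraries (Padj = 0.0179) did, each with 8 members called. DESeq2 called it without CON replicate 1, and PAL replicate 1 held the 3 PAL counts, so that its fold rested on that library. *Bst2* was below the limit for testing with 18 counts in CON and 4 in PAL.

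*Bmal1* esiRNA was set against control esiRNA at 100 nM against 200 nM. In BMAL1 5 of 9 members were lower than in CON, beside 0.324% of 13883 tested genes. They were *Mx2* (log2 fold change -2.96, SE 0.59, Padj = 0.000807), *Ifit3* (-2.45, SE 0.54), *Ifit3b* (-2.29, SE 0.60, Padj = 0.0486), *Ifitm3* (-2.19, SE 0.59, Padj = 0.056) and *Ifit1* (-2.16, SE 0.49, Padj = 0.00605). Not called were *Mx1* (-2.87, SE 1.03), *Rsad2* (-2.20, SE 0.67, Padj = 0.114), *Ifit2* (-1.32, SE 0.52) and *Bst2* (-0.63, SE 0.70). The groups did not overlap in 1 member, *Ifit2*, beside 2.82% of tested genes, and in 7 of the others the first CON library alone reached into or below the range of BMAL1. In *Bst2* CON replicates 3 and 4 lay inside that range too. Without CON replicate 1 the count of members called was 7, with *Mx1* and *Rsad2* added, and without CON replicate 2 it was 1, *Mx2*. Without CON replicate 3 or BMAL1 replicate 1, 2 or 3 it was 3. *Ifit3b* and *Ifitm3* were not called by edgeR (Padj = 0.164 and 0.343) or with a replicate block (Padj = 0.196 and 0.182), which left 3 members in each. In a fit of the 2 groups alone they were not called either, whereas *Ifit2* was (-1.32, Padj = 0.0668), for 4 members in all. The doses of CON and BMAL1 differed, and the part of dose in this difference was not tested.

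Against PAL, which received no esiRNA, BMAL1 was higher in *Ifit1*, at 473 ± 80.9 against 27.7 ± 10.7 (log2 fold change 4.08, SE 0.28, Padj = 1.37e-43), the 1 member called, beside 2.08% of 12786 tested genes. The other 6 members tested received no Padj, because DESeq2 set aside genes of low mean count in this pair. Their log2 fold changes were 4.75 (SE 1.13) for *Mx2*, 3.17 (SE 0.59) for *Rsad2*, 2.76 (SE 1.02) for *Ifitm3*, 1.89 (SE 0.25) for *Ifit3b*, 1.59 (SE 0.26) for *Ifit3* and 0.65 (SE 0.26) for *Ifit2*. Without PAL replicate 3 the values were 4.28 for *Rsad2* and 4.26 for *Ifitm3*. BMAL1 and PAL did not overlap in 7 of 9 members, beside 4.52% of tested genes. *Mx1* and *Bst2*, below the limit for testing, overlapped. *Mx2*, *Rsad2* and *Ifitm3* had 2, 11 and 4 counts in PAL and reached that limit through their BMAL1 counts. EdgeR called 5 members higher, beside 2.06% of tested genes. Without PAL replicate 4, DESeq2 called 3.

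*Chrebp* esiRNA was set against the control esiRNA at 100 nM against 200 nM. In CHREBP 9 of 9 members were higher, beside 2.65% of tested genes, and in 9 of 9 the groups did not overlap, beside 5.01%. The median log2 fold change was 3.03 over the members and -0.0037 over the tested genes. *Rsad2* rose by 3.60 (SE 0.66, Padj = 5.49e-06), *Ifitm3* by 3.56 (SE 0.52, Padj = 2.3e-09) and *Mx1* by 3.34 (SE 0.96, Padj = 0.0204). *Ifit2* rose by 3.25 (SE 0.50), *Ifit3b* by 3.03 (SE 0.60), *Ifit3* by 3 (SE 0.54), *Mx2* by 2.71 (SE 0.56) and *Ifit1* by 2.51 (SE 0.49). *Bst2* rose least, by 2.22 (SE 0.54, Padj = 0.00221), from 18 summed counts to 70. *Mx1* lost its call when CHREBP replicate 1 or CON replicate 4 was left out.

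BOTH against CON is the comparison at a matched 200 nM. Over all genes, chi-square per degree of freedom between pairs of BOTH libraries was 5.77 to 23.1, highest for replicates 2 and 4. In the other groups it was at most 7.53, so the widest pairs were in BOTH and some BOTH pairs were not wider. The count of members called was 9 when any 1 BOTH library was left out. In BOTH 9 of 9 members were higher, beside 5.99% of tested genes, with log2 fold changes from 2.50 (*Bst2*, SE 0.53) to 4.70 (*Rsad2*, SE 0.66) and a median of 3.89. *Ifitm3* rose by 4.34 (SE 0.52), *Mx1* by 4.29 (SE 0.96), *Ifit2* by 4.23 (SE 0.50) and *Ifit1* by 3.32 (SE 0.49). At a matched 100 nM, CHREBP was higher than BMAL1 in 9 of 9 members, beside 2.9% of tested genes. *Mx1* differed by 6.21 (SE 1.02), *Rsad2* by 5.81 (SE 0.67), *Ifitm3* by 5.74 (SE 0.57), *Ifit3* by 5.45 (SE 0.54), *Ifit1* by 4.67 (SE 0.49) and *Bst2* by 2.85 (SE 0.63). In BOTH against BMAL1, 9 of 9 members were higher, by 3.14 (*Bst2*, SE 0.63) to 7.16 (*Mx1*, SE 1.02), beside 6.35% of tested genes. These comparisons share libraries with each other.

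No difference between BOTH and CHREBP was called in the members. By DESeq2 and by edgeR 0 of 9 were called, 1 (*Ifit2*) had an unadjusted p under 0.05, and 0.843% of tested genes were called higher. In 0 of 9 members were the groups apart, beside 1.94% of tested genes. The log2 fold changes were 1.09 (*Rsad2*, 95% interval -0.19 to 2.38), 0.98 (*Ifit2*, 0 to 1.96), 0.95 (*Mx1*, -0.92 to 2.83) and 0.86 (*Ifit3b*, -0.31 to 2.03). They were 0.81 for *Ifit1* (-0.14 to 1.76), 0.79 for *Ifitm3* (-0.20 to 1.77), 0.77 for *Ifit3* (-0.29 to 1.82), 0.72 for *Mx2* (-0.36 to 1.81) and 0.29 for *Bst2* (-0.57 to 1.15). The intervals leave room for a rise of more than 2-fold in each gene, so a p that misses the threshold does not show equal levels. The total dose also differed, at 200 nM against 100 nM.

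The effect of *Bmal1* esiRNA with *Chrebp* esiRNA present (BOTH minus CHREBP) was then tested against its effect without it (BMAL1 minus CON). In 7 of 9 members there was a positive difference of effects, beside 1.2% of tested genes. The difference was 3.69 (SE 0.81, Padj = 0.00305) for *Mx2*, 3.30 (SE 0.94) for *Rsad2*, 3.22 (SE 0.77) for *Ifit3*, 3.15 (SE 0.85) for *Ifit3b*, 2.97 (SE 0.69, Padj = 0.0066) for *Ifit1*, 2.97 (SE 0.77) for *Ifitm3* and 2.30 (SE 0.72, Padj = 0.0713) for *Ifit2*. It was 3.82 (SE 1.40, Padj = 0.199) for *Mx1* and 0.92 (SE 0.82) for *Bst2*. Total esiRNA fell from 200 to 100 nM in 1 arm of this contrast and rose from 100 to 200 nM in the other, so dose cannot be told apart from it. *Ifit2* lost its call in 11 of the 16 fits that left out 1 library, with edgeR (Padj = 0.133) and with a replicate block (Padj = 0.101). *Rsad2* lost it in 6 of the 16 and with the block (Padj = 0.124). EdgeR called 6 members and the block 5. Without CON replicate 2 or 3, 4 members were called, *Mx2*, *Ifit1*, *Ifit3* and *Ifitm3*.

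**Figure D4:**
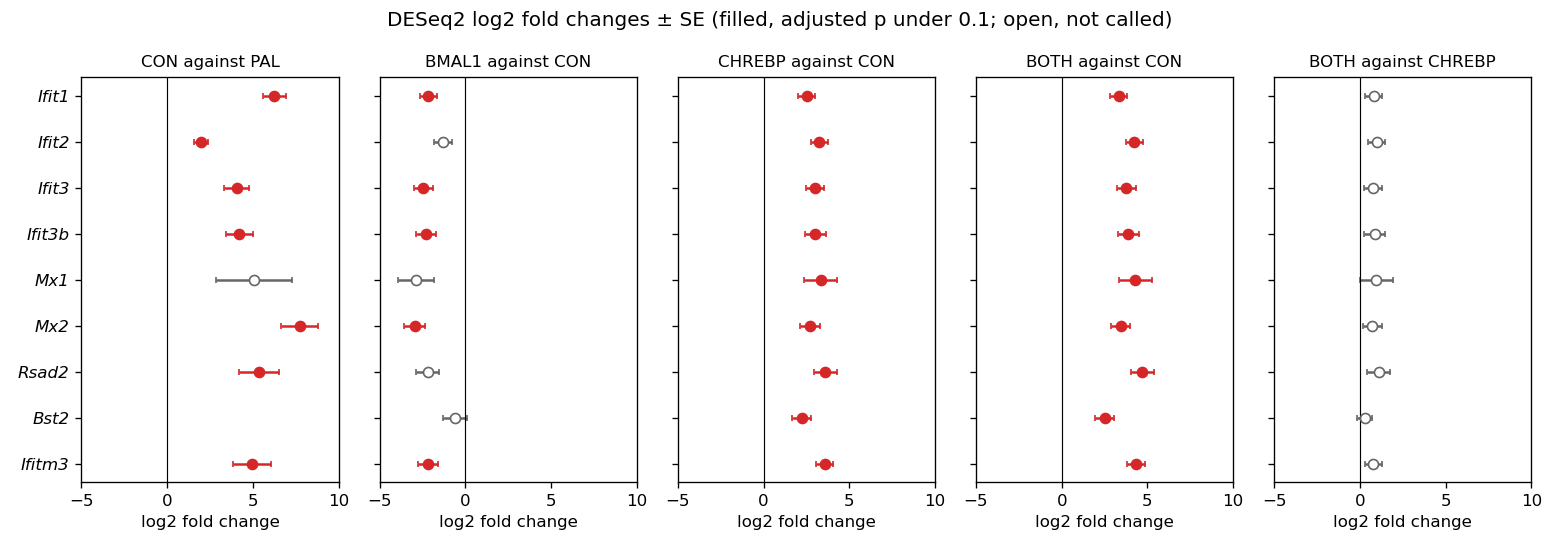
DESeq2 log2 fold change (x axis) ± SE of each member in 5 comparisons, with filled red points for an adjusted p under 0.1 and open grey points for members not called; *Bst2* was not tested in CON against PAL. CHREBP against CON and BOTH against CON are filled for 9 of 9 members, at 2.22 to 3.60 and 2.50 to 4.70, and BOTH against CHREBP holds no filled point, at 0.29 to 1.09.

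The rest of the interferon route was read from 6 lists with 83 genes in the table. In CHREBP against CON 34 of the 59 that were tested rose and none fell, with a median log2 fold change of 1.43, beside 2.65% of all tested genes called higher. In CON against PAL 26 of 56 rose (median 0.87), beside 1.59%. In BMAL1 against CON 12 of 59 fell (median -0.50), beside 0.324%. In BOTH against CHREBP 3 of 59 rose (median 0.55), beside 0.843%, and in PAL against BSA 9 of 47 fell (median -0.23), beside 7.6%.

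Among the ligands, 9 of 21 interferon genes had any count. *Ifnb1*, interferon beta, had no count in BSA or BMAL1, 1 count in PAL, 4 and 1 counts in CON replicates 2 and 3, and 0 in the other 2. It had 8, 5, 2 and 2 counts in CHREBP and 9, 37, 12 and 19 in BOTH. CHREBP was not called against CON (2.05, SE 0.95, Padj = 0.339). CHREBP was called higher than BMAL1 (log2 fold change 4.43), and BOTH higher than CON (4.21) and BMAL1 (6.59). BMAL1 had no count, so the folds against it have no firm size. *Ifnb1* reached the limit for testing only through its BOTH counts. *Ifna2*, *Ifna4* and *Ifnl3* had 7, 8 and 4 counts in the whole series.

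Of the 12 receptors and signal transducers, *Stat2* and *Irf9* were among 3 that rose in CHREBP against CON, by 1.71 (SE 0.23) and 0.94 (SE 0.20). Both rose in CON against PAL, by 1.13 (SE 0.27) and 1.26 (SE 0.28). The 9 receptor subunits and kinases were not called in either, with *Ifngr1* at 0.07 (SE 0.06) in CHREBP against CON. Of 12 sensors and adaptors tested, 7 rose in CHREBP against CON. Among them *Irf7*, the interferon-inducible transcription factor, rose by 2.73 (SE 0.55), whereas the constitutive factor *Irf3* was at -0.08 (SE 0.08) and the kinases *Tbk1* and *Ikbke* at 0.16 (SE 0.11) and -0.07 (SE 0.10). Among feedback inhibitors *Usp18* rose by 2.87 (SE 0.56), *Socs1* by 1.43 (SE 0.25) and *Adar* by 1.28 (SE 0.15), and *Socs3* was at -0.03 (SE 0.11).

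Of the relatives and a neighbour of the members, 10 were tested in CHREBP against CON and 2 rose, beside 2.65% of tested genes. They were *Ifit1bl1*, a relative of the IFIT genes, and the neighbour *Cmpk2*. *Ifit1bl1* had 4.64 ± 3.66 normalized counts in CON, 36.9 ± 25.8 in CHREBP and 71.5 ± 49 in BOTH (SD, n = 4). *Ifitm2*, whose transcript was identical to that of *Ifitm3* at 426 of 539 aligned bases (79.0%), had a log2 fold change of 0.04 (SE 0.05, Padj = 0.918) in CHREBP against CON, where *Ifitm3* rose by 3.56. *Dnm2* and *Dnm1l*, dynamins outside the Mx branch, were at 0.06 (SE 0.09) and 0.12 (SE 0.18). *Cmpk2*, a nucleotide kinase gene that lies 12751 bases from *Rsad2* on the opposite strand, rose by 3.39 (SE 0.66, Padj = 2.86e-05), and by 5.39 (SE 0.99) in CON against PAL. Of 20 other interferon-induced effectors, 19 rose in CHREBP against CON with a median of 2.57. *Oasl1* rose by 2.74 (SE 0.42), *Rtp4* by 2.18 (SE 0.51), *Ifi35* by 1.79 (SE 0.28) and *Zc3hav1* by 1.11 (SE 0.13).

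The genes with the pattern most like the mean of the 9 members, by Pearson correlation of log2(normalized count + 1) over the 24 libraries among 10563 genes, included *Ifi202b* and *Parp12* (both 0.993), *Ifi203* (0.991) and *Cxcl10* (0.990). For single members the closest non-member was *Ifih1* for *Ifit2* (0.994), *Parp12* for *Ifit3b* (0.993), *Usp18* for *Ifit1* (0.990) and *Mx2* (0.981), *Rnf213* for *Ifit3* (0.989), *Cxcl10* for *Rsad2* (0.989) and *Ifitm3* (0.981), *Iigp1* for *Mx1* (0.972) and *Hap1* for *Bst2* (0.939). These values follow the group differences that the libraries share.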

How the data were processed

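BRB-seq libraries of 24 AML-12 samples were grouped by their labels. Per the labels and the methods, the authors split the reads by barcode (BRB-seq tools), mapped them with STAR on mm10 and used HTSeq for counting (featureCounts is also named). Versions, annotation release, strand setting and handling of molecular identifiers are not given in the sources used here. The deposited values were raw counts per gene, and the 5 summary lines of the counter were left out (24.9% to 28.0% of reads per library not aligned, none ambiguous).

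Genes with at least 25 summed counts were tested with the Wald test of DESeq2 1.42.0 in R 4.3.3, and called at a Benjamini-Hochberg adjusted p under 0.1 over all tested genes. PAL against BSA, CON against PAL and BMAL1 against PAL were fitted on their 8 libraries, the other comparisons on the 16 libraries with esiRNA. Alternatives were edgeR 4.0.16 (quasi-likelihood), TMM factors, no filter, a replicate block, other library sets and leaving out each library. The scripts were tested on simulated data. Counting intervals are exact 95% intervals. Members, gene lists and named genes were chosen with earlier results of these data known. Named genes were at most 4 a list, beside the members, the nearest genes by correlation, further cell markers and *Ifit1bl1*. The listed symbols *Mb21d1* and *Tmem173* are not analysed here. Coordinates are from GENCODE M21 and promoters from RefSeq.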

Additional observations from a re-analysis of the deposited data

Results flagged for a closer look

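In the 60 sets of 4 libraries examined (9 members and the *Ifit3* share in 6 groups), 9 had a library apart from the other 3 by Dixon's criterion, where chance gives about 1 in 20 for independent normal values. The members are correlated and several of these sets hold few counts, so the 9 cannot be read against that rate. CHREBP replicate 1 stood above its group with 7263 normalized counts of *Ifit3* and 6843 of *Ifit3b*. The low-count groups gave *Mx1* in PAL replicate 1 (3.96), *Mx2* in BSA replicate 2 (8.70), *Rsad2* in BSA replicate 3 (10.8) and *Ifitm3* in BSA replicate 4 (5.66). The share of *Ifit3* in the summed counts of *Ifit3* and *Ifit3b* stood apart in BSA replicate 1 (62.6%), PAL replicate 3 (41.8%) and BOTH replicate 2 (35.4%). The BOTH library rested on 6478 counts of *Ifit3* and 11804 of *Ifit3b*, and its exact interval did not reach the other 3. The cause was not tested.

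The effect of *Bmal1* esiRNA with *Chrebp* esiRNA present differed from its effect without it by the DESeq2 interaction term in 7 members. The log2 difference was 3.69 for *Mx2*, 3.30 for *Rsad2*, 3.22 for *Ifit3*, 3.15 for *Ifit3b*, 2.97 for *Ifit1*, 2.97 for *Ifitm3* and 2.30 for *Ifit2*. The call of *Ifit2* was lost in 11 and that of *Rsad2* in 6 of the 16 fits without 1 library. Without CON replicate 2 or 3, 4 members were called.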

How the results depend on the processing

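No member with a log2 fold change in the main fit changed direction under any alternative run. Members below the limit for testing in a comparison were not checked for direction there. The count of members called was 0 to 2 for PAL against BSA when 1 library was left out at a time, 7 to 8 for CON against PAL, 1 to 3 for BMAL1 against PAL, 1 to 7 for BMAL1 against CON, 8 to 9 for CHREBP against CON and 4 to 8 for the difference of effects. It was 9 in each such fit for BOTH against CON, BOTH against BMAL1 and CHREBP against BMAL1, and 0 for BOTH against CHREBP. For PAL against BSA edgeR called 2 members and the replicate block 0. For BMAL1 against PAL edgeR called 5, the fit of all 24 libraries 6, and leaving out PAL replicate 4 gave 3. For BMAL1 against CON edgeR and the replicate block called 3 each, without *Ifit3b* and *Ifitm3*. For the difference of effects edgeR called 6 (without *Ifit2*) and the replicate block 5 (without *Ifit2* and *Rsad2*). The block was an alternative, since same-numbered libraries did not deviate together (correlations of -0.28 to 0.32 over 60 pairs, mean 0.02), and 0 libraries correlated best with their own number throughout. Members with few counts in PAL or BSA (*Mx1*, *Mx2*, *Rsad2*, *Bst2*, *Ifitm3*) are limited by depth in comparisons with those groups.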
